A study of Rattus norvegicus with 8 samples.

Results

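The Toll-like receptors *Tlr1* to *Tlr10* were examined in RNA from the *substantia nigra* (SN) of rats 20 weeks after a unilateral injection of a viral vector into that nucleus. All probes on the array whose RefSeq accession belongs to one of these genes were taken, which gave 12 probes for 10 genes among 45598 probes for 16678 named genes. *Tlr6* had 3 probes and each of the other genes had 1, and every probe had 1 spot on each array. Adult female Sprague Dawley rats, 3 months old at surgery per the methods, received AAV6-αSyn, an adeno-associated vector carrying wild-type human α-synuclein, or the control AAV6-Null. The vectors were injected at 5.2e+10 vector genomes per µL for AAV-αSyn and 5.3e+09 for AAV-Null, so the dose of vector and the transgene cannot be told apart in this comparison. The promoter that drives α-synuclein is not given in the sources used here. The tissue was dissected from the injected side, each sample was labelled with Cy3 and read on its own Agilent array, and the groups held 4 arrays each, all on 1 slide. The methods call the samples of a group biological replicates. *Th* and *Slc6a3*, which mark the dopaminergic neurons of this nucleus, were above background on all 8 arrays. On each array 74.8% to 77.5% of spots were well above background, no spot was saturated, and the normalized arrays correlated with each other at 0.983 to 0.993 over the probes tested.

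Toll-like receptors are membrane proteins that recognise molecules of microbes and of damaged cells. One set sits on the cell surface and binds lipids and proteins of microbes, and another sits in endosomes and binds nucleic acids. Ligand binding recruits adaptor proteins such as MyD88 and TRIF, kinases of the IRAK family and ubiquitin ligases, which release NF-κB and interferon regulatory factors to the nucleus and switch on cytokine genes. In the brain these receptors are best known from microglia, its resident macrophages, and they also occur on other glia and on neurons. Since the RNA came from dissected tissue, a change in the number of cells that carry a receptor and a change in the RNA per cell cannot be told apart.

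The receptors divided into those with signal on every array and those at background. A spot counted as well above background when the scanner software called it so. The probes of *Tlr1* (A_44_P252935, NM_001172120), *Tlr2* (A_43_P19763, NM_198769), *Tlr3* (A_64_P040806, NM_198791), *Tlr4* (A_44_P996124, NM_019178), *Tlr7* (A_44_P281510, NM_001097582) and *Tlr9* (A_44_P294706, NM_198131) were above background on all 8 arrays. So were all 3 probes of *Tlr6* (A_44_P1081244, A_44_P1112671 and A_44_P200968). Together these were 9 of the 12 probes, for 7 of the 10 genes. *Tlr8* (A_64_P039287, NM_001101009) was above background on 1 array, AAV-αSyn replicate 1. *Tlr5* (A_64_P003019, NM_001145828) and *Tlr10* (A_44_P419426, NM_001146035) were above background on 0 arrays. Over the whole array, 65% of probes were above background on all 8 arrays, 25.8% on none and 2.36% on exactly 1. Receptors whose genes lie side by side in the rat assembly GRCr8 fell on different sides of this divide. *Tlr1* lies between *Tlr6* and *Tlr10*, and of these *Tlr1* and *Tlr6* had signal on every array and *Tlr10* on none. *Tlr7* is followed by *Tlr8*, and their probes were above background on 8 arrays and on 1 array. No level of a probe is set against that of another here, since brightness also depends on the sequence of a probe.

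**Figure D1:**
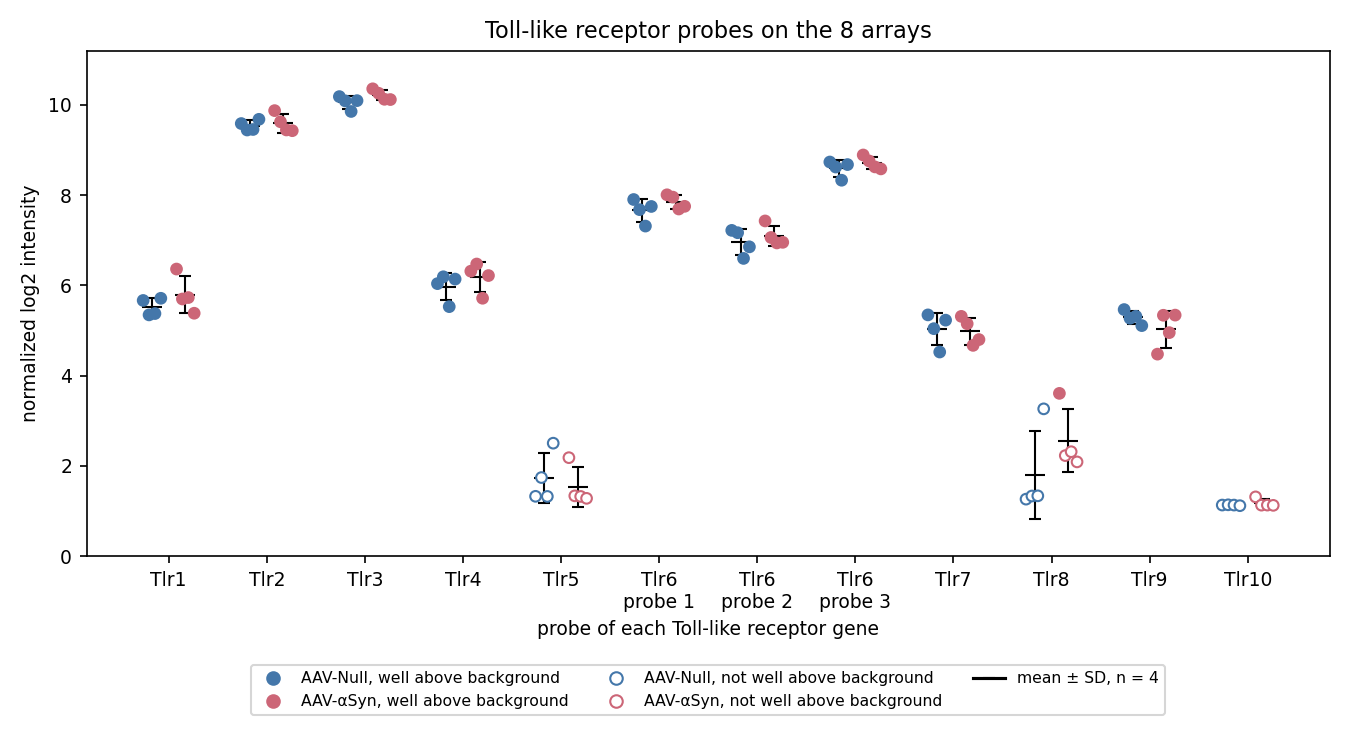
Normalized log2 intensity of each Toll-like receptor probe on the 8 arrays (y axis), with blue points for the 4 AAV-Null and red points for the 4 AAV-αSyn arrays in the order of replicates 1 to 4, and bars at the mean ± SD. Filled points were well above background. *Tlr5* and *Tlr10* have open points only, *Tlr8* has 1 filled point, and the groups overlap at every probe. *Tlr6* probes 1 to 3 are A_44_P1081244, A_44_P1112671 and A_44_P200968, and *Tlr5* and *Tlr10* are shown as normalized without the filter on dim probes.

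The first comparison asked whether human α-synuclein in the SN was accompanied by altered expression of the receptors. None of the 10 probes tested passed the adjustment for multiple testing, none had an unadjusted p under 0.05, and none separated the groups of arrays. Over all 33853 probes tested, 5 passed the adjustment (0.0148%), 1908 had an unadjusted p under 0.05 (5.64%) and 1297 had groups that did not overlap (3.83%). The tests were limma's moderated tests, two-sided, of the difference in mean log2 intensity between AAV-αSyn and AAV-Null arrays, with Benjamini–Hochberg correction across every probe tested and a threshold of 0.05. *Tlr8* entered the test only through 1 AAV-αSyn array and is left out of the counts that follow. Of the 9 probes with signal on every array, 7 had a log2 fold change above 0, against 52.5% of all probes that were above background on at least 1 array of each group. All 3 probes of *Tlr6* were among these 7, and they correlated with each other at 0.84 to 0.97 over the arrays, so that the 7 are not separate genes. The median log2 fold change of the 9 probes was 0.14, the value of a *Tlr6* probe, beside 0.0083 over all probes tested. On the same normalized values it was 0.04 when AAV-Null replicate 3 was left out and 0.06 when AAV-αSyn replicate 1 was. For those 9 probes the 95% intervals of the log2 fold change lay between −0.71 and 0.74, so that changes larger than 1.67-fold in either direction lay outside them.

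**Figure D2:**
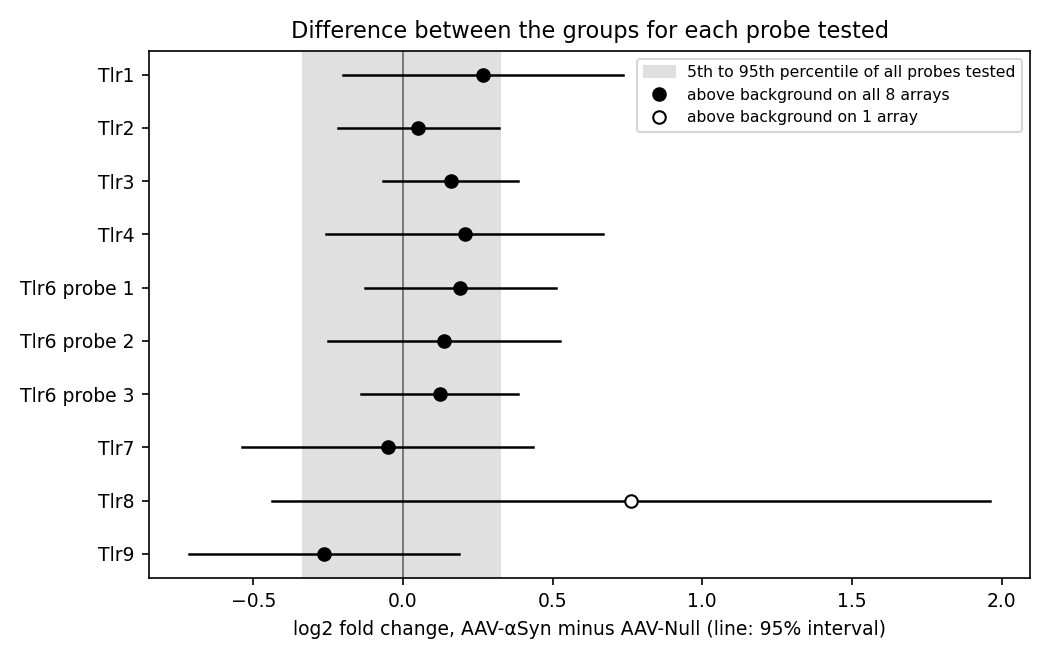
Log2 fold change of each Toll-like receptor probe tested, as the mean of the 4 AAV-αSyn arrays minus that of the 4 AAV-Null arrays (x axis), with lines for the 95% interval from limma's fit. The grey band spans the 5th to the 95th percentile of all 33853 probes tested, −0.33 to 0.32. Every interval includes 0, and the interval of *Tlr8*, which had signal above background on 1 array (open point), is the widest.

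Among the receptors of the cell surface, *Tlr2* recognises bacterial lipoproteins as a dimer with *Tlr1* or *Tlr6*. *Tlr2* had normalized log2 intensities of 9.59, 9.44, 9.46 and 9.68 in the AAV-Null group and 9.87, 9.63, 9.44 and 9.43 in the AAV-αSyn group, here and for each gene in the order of replicates 1 to 4. The AAV-αSyn arrays held both the highest and the lowest value. The means were 9.54 ± 0.11 (SD, n = 4) and 9.59 ± 0.21 (SD, n = 4), which gave a log2 fold change of 0.05 (standard error, SE, 0.12), with an adjusted p of 0.987. The corresponding fold change of 1.04 had a 95% interval of 0.860 to 1.25. Without AAV-αSyn replicate 1 the log2 fold change was −0.04.

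*Tlr1*, the partner of *Tlr2* for triacylated lipoproteins, gave log2 intensities of 5.67, 5.35, 5.38 and 5.71 on the AAV-Null arrays and of 6.36, 5.70, 5.73 and 5.38 on the AAV-αSyn arrays. AAV-αSyn replicate 1 lay above the rest, and the other AAV-αSyn arrays lay within or close to the range of the controls. The log2 fold change was 0.27 (SE 0.20, adjusted p = 0.972 from limma's test), the highest among the probes with signal on all arrays. It was 0.08 without AAV-αSyn replicate 1 and 0.40 without AAV-αSyn replicate 4.

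*Tlr6*, the partner for diacylated lipoproteins, was measured by 3 probes, which agreed in direction in the main fit. The probe A_44_P200968 had log2 intensities of 8.73, 8.62, 8.33 and 8.68 on the AAV-Null arrays and of 8.89, 8.76, 8.63 and 8.58 on the AAV-αSyn arrays, a log2 fold change of 0.12 (SE 0.11). The probe A_44_P1081244 had 7.90, 7.68, 7.31 and 7.75 against 8.01, 7.96, 7.69 and 7.75, a log2 fold change of 0.19 (SE 0.14). The third probe, A_44_P1112671, carries a different RefSeq accession of the gene (XM_006250960) and had a log2 fold change of 0.14 (SE 0.17). With array weights the value of this probe was −0.076. At all 3 probes AAV-Null replicate 3 was the lowest array and AAV-αSyn replicate 1 the highest. Their adjusted p-values lay between 0.971 and 0.973. Without AAV-Null replicate 3 the log2 fold changes were between 0.02 and 0.08.

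*Tlr4*, the receptor for bacterial lipopolysaccharide with its co-receptors, is carried in the brain mainly by microglia. Its log2 intensities were 6.04, 6.19, 5.53 and 6.14 on the AAV-Null arrays and 6.31, 6.47, 5.72 and 6.22 on the AAV-αSyn arrays. The lowest array of each group was replicate 3, and 3 of the AAV-αSyn arrays lay above every control. The means were 5.97 ± 0.30 (SD, n = 4) and 6.18 ± 0.33 (SD, n = 4), which gave a log2 fold change of 0.21 (SE 0.20, adjusted p = 0.973). The fold change was 1.15 with a 95% interval of 0.837 to 1.59, and an exact permutation test over the 70 splits of the arrays gave p = 0.371, where the smallest p possible is 0.0286. Without AAV-Null replicate 3 the log2 fold change was 0.06.

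Among the receptors of the endosome, *Tlr3* binds long RNA duplexes such as those of viruses. It had log2 intensities of 10.18, 10.09, 9.85 and 10.09 on the AAV-Null arrays and of 10.36, 10.26, 10.12 and 10.12 on the AAV-αSyn arrays. Each AAV-αSyn array lay above 3 of the controls, and AAV-Null replicate 1 lay within their range. The means were 10.06 ± 0.14 (SD, n = 4) and 10.21 ± 0.11 (SD, n = 4), which gave a log2 fold change of 0.16 (SE 0.097). Its unadjusted p of 0.141 was the lowest among the receptors tested, with an adjusted p of 0.960 from limma's fit. The fold change was 1.12, with a 95% interval of 0.956 to 1.30. Without AAV-Null replicate 3 the log2 fold change was 0.09.

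*Tlr7*, which recognises RNA rich in uridine, had log2 intensities of 5.35, 5.04, 4.52 and 5.23 on the AAV-Null arrays and of 5.31, 5.15, 4.67 and 4.80 on the AAV-αSyn arrays. The range of the AAV-αSyn arrays lay within that of the controls. The log2 fold change was −0.05 (SE 0.21, adjusted p = 0.992), and it was above 0 when AAV-Null replicate 1 or 4, or AAV-αSyn replicate 3 or 4, was left out.

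*Tlr9*, which recognises DNA with unmethylated CpG, had log2 intensities of 5.46, 5.27, 5.31 and 5.11 on the AAV-Null arrays and of 4.48, 5.34, 4.95 and 5.34 on the AAV-αSyn arrays. AAV-αSyn replicate 1, the highest array for *Tlr1* and *Tlr2*, was the lowest for *Tlr9*. The means were 5.29 ± 0.15 (SD, n = 4) and 5.03 ± 0.41 (SD, n = 4), which gave a log2 fold change of −0.26 (SE 0.20, adjusted p = 0.972). Its 95% interval was 0.610 to 1.14 as a fold change. Without AAV-αSyn replicate 1 the log2 fold change was −0.08.

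*Tlr8*, a relative of *Tlr7* that recognises RNA in endosomes of myeloid cells, stood at the edge of detection. Its processed intensities, in arbitrary units, were 2.24, 2.58, 2.45 and 9.06 on the AAV-Null arrays and 12.8, 3.68, 5.29 and 5.54 on the AAV-αSyn arrays. On the normalized log2 scale these were 1.26, 1.33, 1.34 and 3.26, and 3.61, 2.23, 2.31 and 2.09. All 4 AAV-αSyn arrays lay above AAV-Null replicates 1 to 3, and AAV-Null replicate 4 lay above 3 of the AAV-αSyn arrays. The lowest log2 intensity of any probe called well above background ranged from 2.51 to 3.50 between arrays. A more lenient call of the scanner software, for a signal that is positive and significant against background, was given on AAV-Null replicate 4 and on all 4 AAV-αSyn arrays. The fitted log2 difference was 0.76 (SE 0.52, 95% interval −0.44 to 1.96), with an unadjusted p of 0.182 and an adjusted p of 0.965 from limma's test. No fold change is given for *Tlr8*. It was well above background on 0 AAV-Null arrays and 1 AAV-αSyn array, and the lower bound on the ratio came to less than 1.

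The value for *Tlr8* depended on how dim signal was treated and on AAV-Null replicate 4. In the matrix that the authors deposited, its log2 values were 1.37, 1.36, 1.37 and 4.11 on the AAV-Null arrays and 4.48, 2.99, 3.24 and 3.18 on the AAV-αSyn arrays. The same array of the control group stood apart there. The log2 difference from this matrix was 1.42, and it was 0.07 after a normexp background correction with an offset of 50. Without AAV-Null replicate 4, which left 3 controls at the lowest values, it was 1.29. No call is read from these differences, since the probe entered the test only through the group where it was higher. Without AAV-αSyn replicate 1 the probe was above background on no array and was not tested.

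*Tlr5*, the receptor for bacterial flagellin, had processed intensities of 2.25 to 5.56 in the AAV-Null group and 2.22 to 4.84 in the AAV-αSyn group. *Tlr10*, whose ligands are less well defined, had 1.97 to 2.44 and 1.94 to 2.55. The more lenient call was given for *Tlr5* on AAV-Null replicates 2 and 4 and AAV-αSyn replicate 1, and for *Tlr10* on AAV-αSyn replicate 1. Neither gene was well above background on any array, so that the probes were not tested and no direction is read from them. Signal below this call sets only an upper limit on a transcript and does not show that it is absent.

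The mean level of the receptors also differed between arrays of the same group. After centring each probe on its mean over the 8 arrays, the mean of the 9 probes with signal was 0.12, −0.02, −0.31 and 0.02 on the AAV-Null arrays and 0.22, 0.14, −0.13 and −0.05 on the AAV-αSyn arrays. The range between arrays was 0.53 on the log2 scale, and the groups overlapped. AAV-αSyn replicate 1 was the highest array at 6 of the 9 probes and the lowest at 1, *Tlr9*. AAV-Null replicate 3 was the lowest array at 6 of the 9 probes. Both sets of 6 included all 3 probes of *Tlr6*. The median intensity of AAV-αSyn replicate 1 before normalization was 309.9, within the range of 261 to 338 over all arrays.

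**Figure D3:**
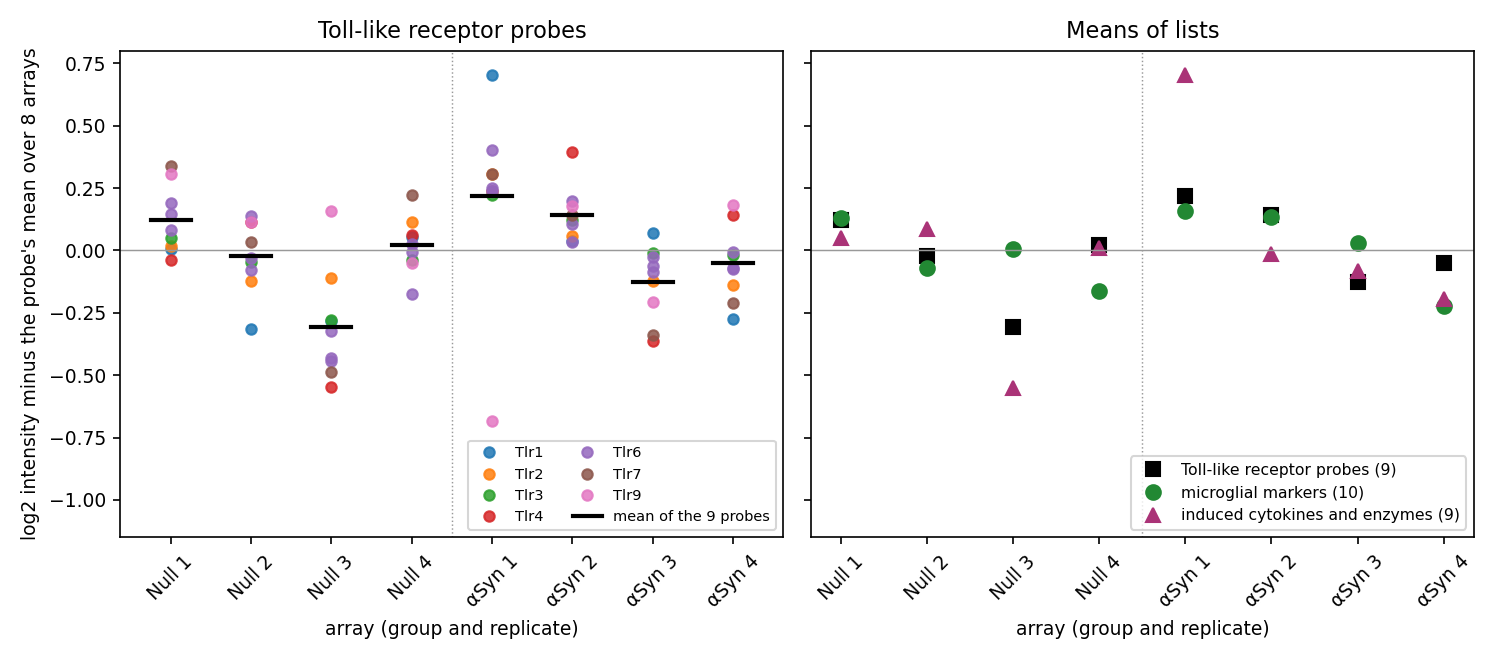
Left, log2 intensity of the 9 Toll-like receptor probes with signal on all arrays, each minus the mean of that probe over the 8 arrays (y axis), by array (x axis), with a bar at their mean. Right, the same mean for the receptor probes, for 10 microglial markers and for 9 cytokine and enzyme genes of the pathway that were above background in both groups. AAV-αSyn replicate 1 has the highest mean of the receptor probes, 0.22, and of the cytokines and enzymes, 0.70, and AAV-Null replicate 3 has the lowest of both, −0.31 and −0.55.

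The 8 arrays lay in 2 columns of the slide, each with 2 arrays of each group, and the differences were recomputed within each column. Of the 9 probes with signal on every array, 7 had the same sign in both columns, 6 of them above 0 and 1, *Tlr9*, below 0. *Tlr4* had a log2 difference of −0.15 in the first column and 0.56 in the second, and *Tlr7* of −0.14 and 0.04. *Tlr1* had 0.52 and 0.02, so that most of its difference came from the first column, which holds AAV-αSyn replicate 1. *Tlr3* had 0.15 and 0.17.

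Genes whose levels followed each receptor across the arrays were listed by Pearson's r over the 8 arrays among 29644 other probes with signal on every array. The arrays include both groups and share 1 slide, and r is given as a description of likeness, since the highest of so many values is high for any probe. *Tlr1* was followed most closely by *RT1-Da*, a chain of MHC class II (r = 0.987), and *Cxcl10*, an interferon-induced chemokine (0.981). *Tlr2* was followed by *Derl3* (0.975) and *Itpka* (0.954), *Tlr3* by *Dpy19l1* (0.991) and *Spata1* (0.984), and *Tlr4* by *Il1rn*, the interleukin 1 receptor antagonist (0.973), and *Bcl9l* (0.967). *Tlr7* was followed by *Nol12* (0.992) and *Dnase1l1* (0.978), and *Tlr9* by *Tpsab1*, a mast cell tryptase (0.951), and *Hnrnpa3* (0.947). The 3 *Tlr6* probes named different genes, *Spata1* (0.991) and *Pla2g4a* (0.985) for A_44_P1081244, *Rbl2* (0.973) and *Slamf9* (0.970) for A_44_P1112671, and *Snap23* (0.987) and *Sh3glb1* (0.985) for A_44_P200968.

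The next comparison covered 65 genes that act around the receptors, from co-receptors to induced cytokines, each represented by its brightest tested probe. Of these, 56 had a named probe, 52 were tested and 46 were above background on all 8 arrays. None passed the adjustment. *Ccl4* and *Ifnb1* were above background on no AAV-Null array and entered the test only through AAV-αSyn arrays, and the counts that follow leave them out. The lowest adjusted p of the other 50 was 0.787. Before adjustment 3 of these 50 had p under 0.05 (6%), 2 higher and 1 lower in AAV-αSyn. The groups did not overlap for 1 of the 50 (2%), which was higher. Over all probes above background in both groups these shares were 5.34% (3.16% higher and 2.18% lower) and 3.79% (2.55% higher). The median log2 fold change of the 50 was 0.05, and it lay between 0.043 and 0.085 when 1 array was left out. Of the 50 values 34 were above 0, against 52.5% of all probes above background in both groups.

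Upstream, 6 co-receptor and ligand-binding genes were tested. *Cd14*, which hands lipopolysaccharide to *Tlr4*, had the highest value of this list, a log2 fold change of 0.25 (SE 0.14, adjusted p = 0.942), and *Cd36*, a scavenger receptor that works with *Tlr2*, the lowest, −0.17 (SE 0.69). Over 20 alternatives *Cd14* lay between 0.16 and 0.35, with an unadjusted p under 0.05 from limma's test in 1 of them. Leaving out 1 array at a time moved *Cd36* between −0.79 without AAV-Null replicate 3 and 0.20 without AAV-Null replicate 1, and above 0 also without AAV-Null replicate 4, AAV-αSyn replicate 1 or AAV-αSyn replicate 2. Of 4 trafficking genes tested, *Cnpy3*, a chaperone of the receptors, had 0.09, and 0.17 without AAV-Null replicate 3, and *Lrrc59*, which acts on the transport of endosomal receptors, had −0.06, and −0.028 without AAV-Null replicate 4. The 3 adaptor genes tested lay between −0.02 for *Myd88*, which serves all of these receptors but *Tlr3*, and 0.13 for *Ticam2*, which serves *Tlr4* in the endosome and was 0.015 without AAV-αSyn replicate 1. *Myd88* was 10.27, 10.33, 9.95 and 10.51 on the AAV-Null arrays and 10.46, 10.19, 10.17 and 10.16 on the AAV-αSyn arrays, so that AAV-αSyn replicate 1 again stood above the rest of its group. Its log2 fold change lay between −0.12 and 0.064 when 1 array was left out.

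Of the 13 kinases and ubiquitin ligases tested, 1 separated the groups (7.69%, against 3.79% of probes above background in both groups). *Ripk1*, a kinase that joins the adaptor TRIF to NF-κB, was 8.83 to 8.97 on the AAV-Null arrays and 8.98 to 9.12 on the AAV-αSyn arrays, a log2 fold change of 0.15 (SE 0.071, adjusted p = 0.910 from limma's test). *Irak2* had the highest value, 0.27 (SE 0.14), which was 0.15 without AAV-Null replicate 3, and *Irak3*, an IRAK that restrains signalling, the lowest, −0.07 (SE 0.16), which was 0.087 without AAV-Null replicate 1. Among 7 inhibitors tested, the values ran from −0.03 for *Sigirr* to 0.27 for *Nfkbia*, which encodes the inhibitor of NF-κB. All 7 intervals in this list included 0, and *Sigirr* lay between −0.14 and 0.066 when 1 array was left out. Without AAV-Null replicate 1 *Nfkbia* was 0.46, with an unadjusted p of 0.0144 and an adjusted p of 0.679 from limma's test, and without AAV-Null replicate 4 it was 0.14.

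Of 8 transcription factors tested, 3 had an unadjusted p under 0.05 (37.5%, against 5.34% of probes above background in both groups), and none passed the adjustment. *Fos*, a subunit of AP-1, was 7.21, 7.81, 6.84 and 7.25 on the AAV-Null arrays and 7.64, 8.41, 8.18 and 7.68 on the AAV-αSyn arrays. Its log2 fold change was 0.70 (SE 0.24), with an unadjusted p of 0.0205 and an adjusted p of 0.787 from limma's test. *Irf7*, an interferon regulatory factor downstream of *Tlr7* and *Tlr9*, was 9.54, 10.54, 10.57 and 9.95 on the AAV-Null arrays and 9.54, 9.75, 9.44 and 9.33 on the AAV-αSyn arrays. Its log2 fold change was −0.64 (SE 0.23), with an unadjusted p of 0.0260 and an adjusted p of 0.83 from limma's test. For both genes the groups overlapped, and the unadjusted p stayed under 0.05 in 16 of 20 alternatives each. For *Fos* it was above 0.05 with array weights and when the control replicate 3 or the AAV-αSyn replicate 2 or 3 was left out. For *Irf7* the same held for the control replicates 2 and 3 and the AAV-αSyn replicates 3 and 4, each left out alone. *Irf3*, the factor downstream of TRIF, had 0.22 at its brighter probe (unadjusted p = 0.0398, adjusted p = 0.857 from limma's test) and 0.02 at the other. The first of these p-values stayed under 0.05 in 12 of 20 alternatives.

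Of the induced cytokines and enzymes 11 were tested, 9 of them above background in both groups. The median log2 fold change of these 9 was 0.24, and it was 0.10 without AAV-αSyn replicate 1 and 0.08 without AAV-Null replicate 3. *Ccl4*, a chemokine of activated microglia and macrophages, was 2.81, 3.39, 2.90 and 3.59 on the AAV-Null arrays and 4.55, 3.97, 3.61 and 3.66 on the AAV-αSyn arrays, above background on 0 of the former and 3 of the latter. After the normexp correction its log2 difference was 0.13, and no fold change or call is read from it. *Cxcl10* was 6.36, 5.39, 5.49 and 6.43 on the AAV-Null arrays and 8.31, 6.57, 6.22 and 5.89 on the AAV-αSyn arrays, a log2 fold change of 0.83 (SE 0.52, adjusted p = 0.961), which was 0.31 without AAV-αSyn replicate 1. *Ccl5* had the lowest value among those with signal on all arrays, −0.17 (SE 0.46), which was −0.80 with array weights. *Il6*, *Il12b* and *Nos2* were not above background on any array.

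**Figure D4:**
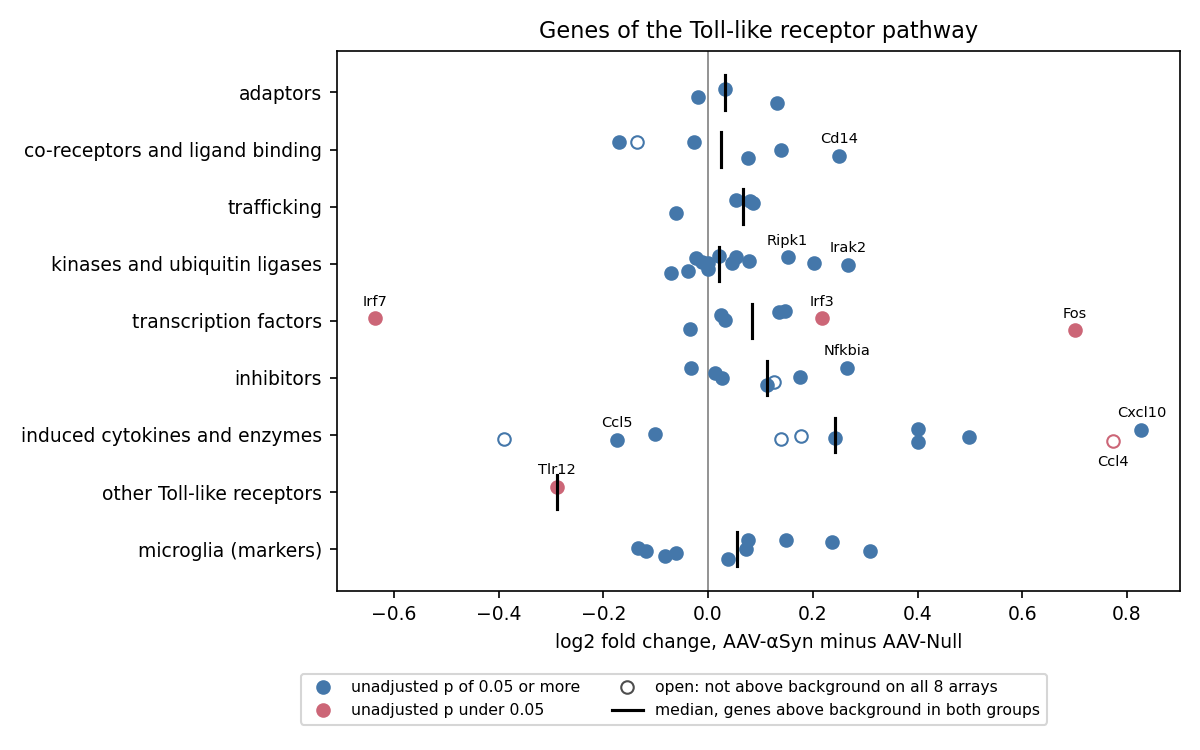
Log2 fold change, AAV-αSyn minus AAV-Null, of each tested gene of the Toll-like receptor pathway and of 10 microglial markers (x axis), by list (y axis), with a bar at the median of each list. Bars are taken over genes above background in both groups, red points have an unadjusted p under 0.05, and open points, *Ccl4* among them, were not above background on all 8 arrays. The medians of the lists of more than 1 gene lie between 0.02 and 0.24.

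*Tlr12*, a rodent receptor outside the members taken here, was also measured with signal on all arrays. It was 6.09, 6.30, 6.33 and 6.42 on the AAV-Null arrays and 6.03, 6.12, 5.99 and 5.85 on the AAV-αSyn arrays. Its log2 fold change was −0.29 (SE 0.097), with an unadjusted p of 0.0169 and an adjusted p of 0.760 from limma's test, and the groups overlapped. Over 20 alternatives the value lay between −0.35 and −0.14. The unadjusted p from limma's test stayed under 0.05 in 19 of them, and the adjusted p was 0.247 or more. *Tlr11* was not above background on any array, and *Tlr13* was not analysed here.

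Markers of the cells that carry these receptors were measured on the same arrays. All 10 microglial markers were above background on all 8 arrays, none had an unadjusted p under 0.05, and 6 had a log2 fold change above 0, with a median of 0.06 and a range of −0.13 to 0.31. This median was 0.015 when AAV-αSyn replicate 1 was left out and 0.13 when AAV-Null replicate 1 or AAV-αSyn replicate 4 was. Their summed normalized intensity was 54859 to 66750 on the AAV-Null arrays and 54551 to 67895 on the AAV-αSyn arrays. Their mean after centring was 0.13, −0.07, 0.01 and −0.16 on the AAV-Null arrays and 0.16, 0.14, 0.03 and −0.22 on the AAV-αSyn arrays, so that AAV-αSyn replicate 1 had the highest value here too, and AAV-Null replicate 3 did not have the lowest. Of 7 blood leukocyte markers with a named probe, 4 were tested and 2 were above background on all arrays. Of the 4, 1 was above background on AAV-αSyn replicate 1 only and is left out of the mean that follows. The centred mean of the 3 markers above background in both groups was −0.44 to 0.73 on AAV-Null and −0.48 to 0.39 on AAV-αSyn arrays. *Cd3e*, *Cd8a* and *Ccr7* of that list were not above background on any array. Of 4 markers of perivascular macrophages, 3 were above background on all arrays. None of these 3 had a log2 fold change above 0, against 52.5% of probes above background in both groups, and none had an unadjusted p under 0.05. Their median of −0.14 lay between −0.46 and −0.02 when 1 array was left out. Of 6 markers of neurons of the SN, all above background on all arrays, 3 (*Th*, *Slc6a3* and *Ddc*) were lower in AAV-αSyn with an unadjusted p under 0.05, a call made in this direction for 2.18% of probes above background in both groups, and none passed the adjustment. Their log2 fold changes were −0.52, −0.79 and −0.25, and the groups did not overlap for *Th* and *Ddc* (33.3% of the 6, against 3.79% of probes above background in both groups). The other 3 had log2 fold changes of −0.29 (*Slc18a2*), −0.07 (*Slc32a1*) and 0.15 (*Gad1*). The mean of the 6 after centring was −0.07 to 0.32 on the AAV-Null arrays and −0.25 to −0.05 on the AAV-αSyn arrays. The part of these cell types in the values of the receptors was not tested.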

How the data were processed

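RNA of the ipsilateral SN was measured on 8 one-colour Agilent rat arrays. The authors deposited Feature Extraction scanner files with an intensity for each spot, corrected for background within the array, and a matrix of log2 values that the authors had quantile normalized. The submitters' processing notes name Feature Extraction 11.5.1.1 and the file headers name 12.0.3.2. The methods used 3 samples per group without naming them, and all 4 deposited per group were used here.

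Processed intensities were taken to log2 after leaving out control and outlier spots. Probes with at least 0.5 of their spots well above background on at least 1 array were kept, quantile normalized, averaged over spots and compared with lmFit and eBayes in limma 3.58.1 (R 4.3.3) over all probes. Figures were drawn with matplotlib 3.10.9. Probes were named through RefSeq accessions and a table of the assembly GRCr8, which named 21229 of 45598. The files' headers name an older build, so no positions are given. For exact permutation tests the arrays were divided in all 70 ways. The procedure was tested on simulated data.

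The receptors, the pathway lists and the tests were chosen with earlier results of these data known. Of each pathway list the text names genes past the adjustment, genes whose groups did not overlap (at most 4), and the highest and lowest log2 fold change among those with signal on all arrays. *Irf3* was added after its values were seen. Alternatives covered scaling, background, filter, source, outlier spots, variance model, blocks and leaving out each array. 1 marker of the blood leukocyte list is not reported here.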

Additional observations from a re-analysis of the deposited data

Results flagged for a closer look

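In 8 of the 92 groups of 4 arrays examined, 1 array stood far from the other 3, measured as its gap to the nearest array over the range of the group. Chance flags about 1 in 20 groups, or 4.6 of these, and 4 of the 8 lie at *Tlr5*, *Tlr8* and *Tlr10*, which were not above background on 7 or all of the 8 arrays. *Tlr8* was 3.26 on AAV-Null replicate 4 and 1.26 to 1.34 on the rest of that group (ratio 0.963), and it was 3.61 on AAV-αSyn replicate 1 and 2.09 to 2.31 on the rest of its group (0.851). *Tlr5* was 2.18 on AAV-αSyn replicate 1 and 1.28 to 1.34 on the others (0.939), and *Tlr10* was 1.31 against 1.13 (0.971), both below the level called well above background. *Myd88* was 10.46 on AAV-αSyn replicate 1 and 10.16 to 10.19 on the others (0.890). *Irak2* was 8.46 on AAV-Null replicate 3 and 8.91 to 8.97 on the others (0.870). The mean after centring of the 9 induced cytokines and enzymes above background in both groups was −0.55 on AAV-Null replicate 3 and 0.01 to 0.08 on the others (0.884). The mean of 4 erythroid markers was 0.45 on AAV-αSyn replicate 3 and −0.36 to −0.23 on the others (0.834).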

How the results depend on the processing

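None of the receptor probes and none of the pathway genes passed the adjustment under any of the 20 alternatives. With the more lenient call, positive and significant against background, 9 receptor probes again had signal on all arrays. Calls that required all spots or any spot could not differ from the main call, since each receptor probe had 1 spot. Among the 9 probes of *Tlr1* to *Tlr10* with signal on all arrays, an unadjusted p under 0.05 was reached for *Tlr4* with the replicate number as a block (0.21, unadjusted p = 0.0431, adjusted p = 0.745 from limma's test) and for no other. *Tlr8* is left out of that statement, since it was tested only through 1 AAV-αSyn array. The replicate number is also the row of the slide. Deviations of arrays with the same number correlated at 0.0981, 0.157, 0.199 and 0.0065. In both groups the arrays numbered 1, 2 and 3 correlated best with their own number, and those numbered 4 did not. The methods state no pairing of animals, and the main fit has no term for the number. Whether the row of the slide or a pairing lies behind these correlations was not tested. With this replicate block 0 of all probes passed the adjustment in place of 5, and 0 receptor and 0 pathway genes did. The unadjusted p from limma's test was then under 0.05 for 2218 of all probes in place of 1908. Array weights raised the count of all probes with an unadjusted p under 0.05 from 1908 to 4503 and turned *Tlr6* (A_44_P1112671) to −0.076 and *Sigirr* to 0.059, with *Ccl5* at −0.80, and normexp turned *Myd88* to 0.0017. Leaving out arrays 1 at a time moved the log2 fold change across 0 for *Tlr7* (−0.22 to 0.052), *Tlr2* (−0.042 to 0.11), *Myd88* (−0.12 to 0.064), *Irak3* (−0.18 to 0.087), *Cd36* (−0.79 to 0.20), *Ccl5* (−0.43 to 0.10) and *Sigirr* (−0.14 to 0.066). The cause was not tested. Over these alternatives the direction was kept in 191 values and turned in 6 for the receptor probes tested, and kept in 341 and turned in 17 for the 18 other genes followed. Other pathway genes were counted under each alternative but not followed one by one. *Tlr8* and *Ccl4* were not tested under filters that required 4 or 8 arrays above background, and *Tlr8* not without AAV-αSyn replicate 1. Signal over background limits *Tlr5*, *Tlr8*, *Tlr10* and *Ccl4*. The medians of the receptors and of the induced genes without each array were added after seeing the data.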
